A study of Mus musculus with 2 samples.

Results

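SRCAP peaks were examined at the genes of 4 signalling pathways that pattern the embryo, Wnt, Fgf, Bmp and Notch. The genes were the protein-coding genes of the GENCODE vM21 annotation (GRCm38) whose symbol is Wnt, Fzd, Fgf, Fgfr, Bmp, Notch, Dll or Jag with a number, a rule that uses no measured value. The genes described came to 74 of 21951 protein-coding genes. Of these, 51 encode ligands (19 Wnt, 18 Fgf, 9 Bmp, 3 Dll and 2 Jag genes) and 18 encode receptors (10 Fzd, 4 Fgfr and 4 Notch genes). The remaining 5 are neither: Fgf11, Fgf12, Fgf13 and Fgf14 encode Fgf-related proteins that stay inside the cell, and Bmp1 encodes a protease that cuts procollagen. Receptors of Bmp proteins carry other names and are described with the other pathway genes. The comparison of ligands with receptors thus holds Bmp ligands but no Bmp receptor.

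SRCAP is the motor subunit of a remodelling complex that puts the histone variant H2A.Z into nucleosomes in place of H2A. It was mapped by CUT&RUN, where an antibody brings a nuclease to the protein and the DNA cut loose around it is sequenced, in SYAT mouse embryonic stem cells (mESCs), CGR8 cells in which both Srcap alleles carry YPet and an auxin-inducible degron (AID) and which express the OsTir1 receptor. There was 1 library with an antibody against GFP, which recognises YPet, and 1 with an antibody against SRCAP, each from 100000 cells fixed in 0.1% formaldehyde for 5 min. Only its label identifies the GFP library as CUT&RUN, since the methods text lists that antibody under CUT&Tag, a similar assay. SYAT cells were routinely kept in auxinole, which prevents basal loss of SRCAP. The labels of both libraries list auxinole, at a concentration that differs from that of the methods text. The routine medium held CHIR99021, an inhibitor of the Wnt pathway kinase GSK3, and PD184352, an inhibitor of the kinase MEK that acts below Fgf receptors, and was replaced before experiments by serum and LIF without both inhibitors. Expression was not measured here, so the labelled cell type could be looked at only through peaks: of 10 marker genes of embryonic stem cells, Tfcp2l1 and Zfp42 had a promoter peak in both lists, Utf1 had one in the GFP list, Esrrb and Nanog had peaks in the gene body alone, and Pou5f1, Sox2, Klf4, Tdgf1 and Dppa5a had none.

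In these pathways a secreted or membrane-bound ligand binds a receptor on the surface of the receiving cell. Wnt proteins bind Frizzled (Fzd) receptors and stabilise β-catenin, Fgf proteins activate the receptor tyrosine kinases of the Fgfr family, Bmp proteins act through receptor serine/threonine kinases and Smad proteins, and Delta-like (Dll) and Jagged (Jag) proteins on one cell bind Notch on the next, whose intracellular part is then released to the nucleus. In embryonic stem cells, Fgf4 signalling favours exit from the naive state and Wnt signalling favours self-renewal.

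Some of the promoter peaks found with both antibodies are shown first, since there the lists mark the same bases. They are those with the highest summed scores among the pairs that could be printed. The pairs of Wnt8a and Fzd8, and that of Fgfr1 downstream of its TSS, are not shown. The score is the authors' whole number for each peak. Its lowest value was 13 and its median 47 in both lists, and its meaning is not given in the sources used here. Each sequence is the stretch of GRCm38 covered by the peaks of both antibodies upstream of the nearest transcription start site (TSS), at most 300 bp, read 5′ to 3′ on the strand of the gene, and capitals mark exact matches to 1 of 7 motifs on either strand. Notch1 (chr2:26503929-26504228, minus strand, from -404 to -105 bp of a TSS that lies 2 bp from the start of the Notch1 CCDS transcript, in an intron of a longer Notch1 transcript) had scores of 113 (GFP antibody) and 78 (SRCAP antibody). Wnt9b (chr11:103749985-103750275, minus strand, from -454 to -164 bp) had scores of 68 and 74. Bmp8a (chr4:123343253-123343511, minus strand, from -259 to -1 bp) had scores of 64 and 65. Fzd9 (chr5:135251295-135251537, minus strand, from -307 to -65 bp) had scores of 66 and 52. Fzd7 (chr1:59481961-59482013, plus strand, from -463 to -411 bp) had scores of 22 and 67, and Fgf12 (chr16:28753368-28753628, minus strand, from -560 to -300 bp) had scores of 54 and 34. All except the Notch1 stretch lie outside the annotated span of their own gene.
Notch1: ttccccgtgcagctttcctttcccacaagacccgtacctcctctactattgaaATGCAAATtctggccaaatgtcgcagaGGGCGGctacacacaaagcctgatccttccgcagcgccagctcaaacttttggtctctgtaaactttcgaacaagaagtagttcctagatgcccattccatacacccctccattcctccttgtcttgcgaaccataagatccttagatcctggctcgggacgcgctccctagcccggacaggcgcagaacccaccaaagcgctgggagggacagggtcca
Wnt9b: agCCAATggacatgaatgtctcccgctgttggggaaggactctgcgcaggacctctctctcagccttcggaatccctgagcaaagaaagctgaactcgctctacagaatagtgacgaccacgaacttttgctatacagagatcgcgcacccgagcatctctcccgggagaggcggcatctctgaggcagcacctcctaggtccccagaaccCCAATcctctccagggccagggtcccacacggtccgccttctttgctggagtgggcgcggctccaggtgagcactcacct
Bmp8a: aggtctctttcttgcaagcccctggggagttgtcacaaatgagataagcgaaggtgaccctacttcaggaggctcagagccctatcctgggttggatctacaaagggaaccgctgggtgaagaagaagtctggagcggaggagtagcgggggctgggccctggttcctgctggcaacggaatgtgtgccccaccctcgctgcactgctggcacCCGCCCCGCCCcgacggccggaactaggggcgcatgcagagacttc
Fzd9: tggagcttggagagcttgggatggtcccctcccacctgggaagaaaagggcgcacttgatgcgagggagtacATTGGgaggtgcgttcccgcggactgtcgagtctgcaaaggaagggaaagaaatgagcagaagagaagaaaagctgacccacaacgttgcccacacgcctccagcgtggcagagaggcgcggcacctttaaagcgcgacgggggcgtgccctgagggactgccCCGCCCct
Fzd7: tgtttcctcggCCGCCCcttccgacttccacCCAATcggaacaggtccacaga
Fgf12: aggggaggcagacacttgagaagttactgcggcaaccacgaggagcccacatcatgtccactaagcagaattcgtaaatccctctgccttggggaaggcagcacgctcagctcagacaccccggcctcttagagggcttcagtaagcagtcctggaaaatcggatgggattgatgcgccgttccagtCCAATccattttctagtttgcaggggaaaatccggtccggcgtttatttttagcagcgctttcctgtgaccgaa

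The Wnt9b stretch held 2 CCAAT boxes (CCAAT, the site of the factor NF-Y), and the Fzd9, Fzd7 and Fgf12 stretches held 1 each. GC boxes (GGGCGG, bound by Sp1 and its relatives) numbered 2 in Bmp8a, where they overlap by 1 base, and once each in Notch1, Fzd9 and Fzd7. Notch1 also held 1 octamer (ATTTGCAT), the site of Oct factors. The other motifs searched were CCGGAAG (ETS factors), CACGTG (E-box), TGACGTCA (CRE) and CTTTGAT (TCF/LEF, the nuclear factors of the Wnt pathway), and none of them was in these 6 stretches. A match of letters is not evidence that the factor binds there.

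The first question was how many of the genes had a peak at the promoter, taken as a peak midpoint from 1000 bp upstream to 500 bp downstream of any annotated TSS. In the GFP list 22 of the 74 genes had one (29.7%, 95% Wilson interval 20.5 to 40.9), beside 35.0% of all protein-coding genes. In the SRCAP list 19 had one (25.7%, 17.1 to 36.7), beside 35.6%. Both lists held a promoter peak for 14 genes (18.9%, 11.6 to 29.3), beside 27.0%. The background was within the intervals of both single lists and of their overlap, so in this count the genes as a whole were not distinguishable from protein-coding genes at large. With the SRCAP antibody this call was narrow. The background lay above the interval with the TSSs of protein-coding transcripts alone (23.0%, 14.9 to 33.7, beside 33.8%), with CCDS transcripts (20.3%, 12.7 to 30.8, beside 33.8%), without chromosome 8 (23.6%, 15.3 to 34.6, beside 34.9%), with peaks at or above the median score (12.2%, 6.53 to 21.5, beside 23.5%) and with peaks of both antibodies alone (14.9%, 8.51 to 24.7, beside 25.8%), the last in the GFP list as well. A promoter peak stood in the GFP list alone for 8 genes and in the SRCAP list alone for 5. A further 20 genes had peaks in the gene body only, and 27 had none in either place. A promoter peak in at least 1 list was held by 27 genes (36.5%, 26.4 to 47.9), beside 43.6% of all protein-coding genes. Some promoter or body peak was held by 47 genes (63.5%, 52.1 to 73.6), beside 58.2%. Both of these intervals held their background. Intervals cover counting error only: each antibody had 1 library with no replicate, genes are not independent replicates, and a library pools many cells, so a peak does not say in how many cells SRCAP was present.

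**Figure D1:**
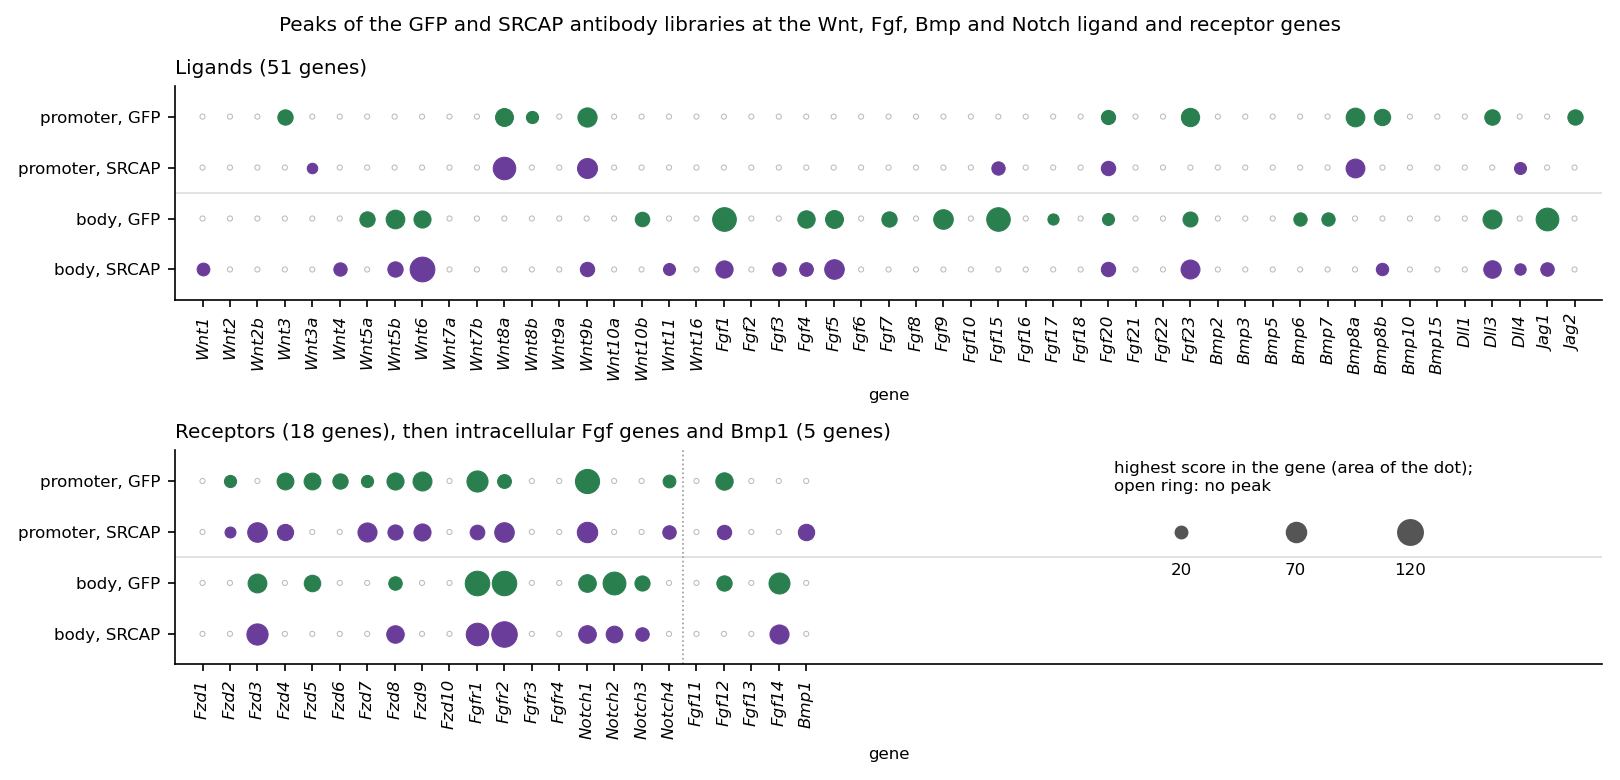
Peaks at each of the 74 genes (horizontal axis), in rows for promoter and gene body and for the GFP and SRCAP antibodies; the area of a dot is the highest score in that place and an open ring is no peak. Promoter dots are spread thinly over the 51 ligands and fill most Fzd positions among the 18 receptors.

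Ligands and the Fzd, Fgfr and Notch receptors differed at promoters. In the GFP list 10 of 51 ligands (19.6%, 11.0 to 32.5) and 11 of 18 receptors (61.1%, 38.6 to 79.7) had a promoter peak, a difference of 41.5 percentage points (95% Newcombe interval 15.6 to 62.0). In the SRCAP list these were 7 ligands (13.7%, 6.81 to 25.7) and 10 receptors (55.6%, 33.7 to 75.4), a difference of 41.8 points (16.9 to 62.9). Requiring a promoter peak in both lists left 4 ligands (7.84%, 3.09 to 18.5) and 9 receptors (50.0%, 29.0 to 71.0), a difference of 42.2 points (18.6 to 63.7). Ligands stood below the background of all protein-coding genes in all 3 counts, with the background above their interval, while the receptor interval held the background with the SRCAP antibody and lay above it in the other 2 counts. Both libraries come from the same cell line, so they are not 2 independent measurements of the difference.

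By pathway, the interval of the difference in single lists excluded 0 for Wnt genes alone. Of 10 Fzd genes, 7 had a GFP and 6 a SRCAP promoter peak, against 4 and 3 of 19 Wnt genes, and the differences were 48.9 points (11.3 to 71.9) and 44.2 points (8.16 to 69.6). For Fgf signalling, 2 of 4 Fgfr genes and 2 of 18 Fgf ligands had one in either single list, a difference of 38.9 points whose interval spanned 0 (-2.28 to 74.8). For Notch signalling, 2 of 4 Notch genes stood against 2 of 5 Dll and Jag genes with the GFP antibody and 1 of 5 with the SRCAP antibody, and the differences of 10.0 points (-40.9 to 55.0) and 30.0 points (-25.0 to 68.6) were within counting error.

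**Figure D2:**
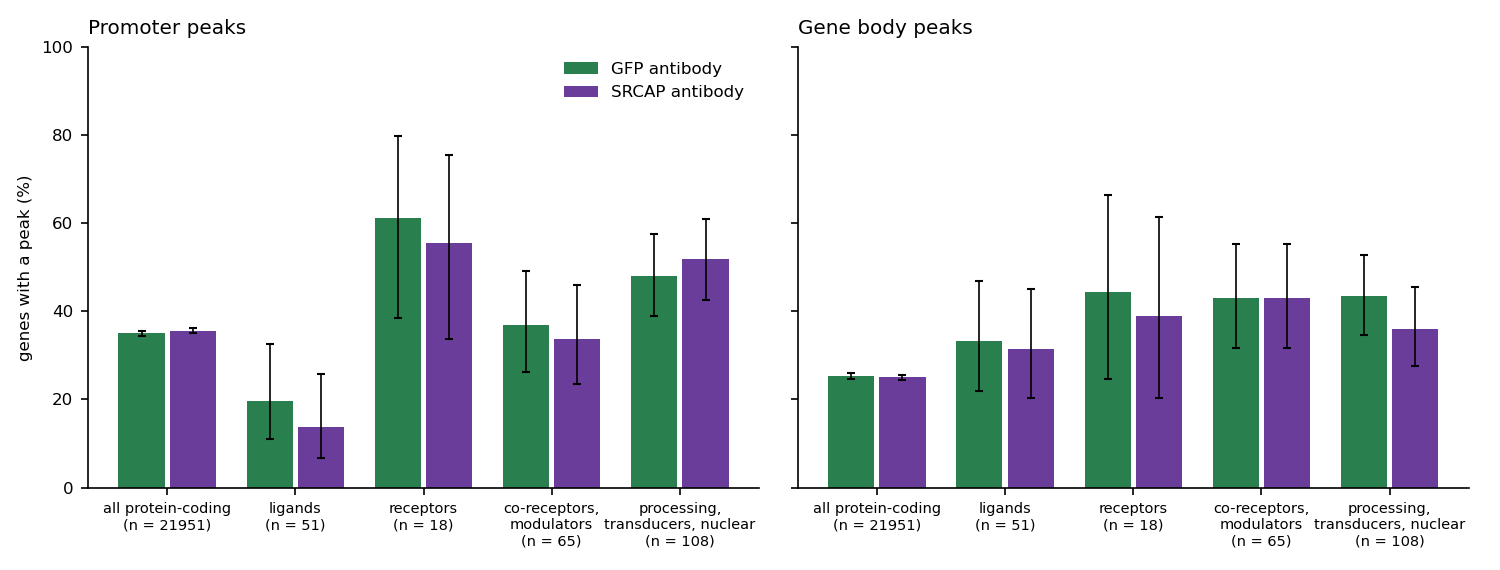
Percentage of genes with a promoter peak (left) and a gene body peak (right) by class of gene and antibody; bars are shares, error bars are 95% Wilson intervals and the number of genes is under each class. At promoters the ligands (19.6% and 13.7%) are lowest and the receptors (61.1% and 55.6%) highest, while in gene bodies the intervals of both classes overlap widely.

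The receptor counts depended on which TSSs were accepted. The median number of annotated TSSs was 2 for ligands and for receptors, but Fgfr1 and Fgfr2 have 18 and 14 and Notch1 and Notch4 11 each. With the TSSs of protein-coding transcripts alone, Notch4 left the receptor count in both lists and Fgfr1 in the SRCAP list, and the differences were 35.9 and 30.7 points. With the TSSs of CCDS transcripts alone, an alternative chosen after seeing the data, Fgfr1 left the GFP count and Fgfr2 the SRCAP count as well: 9 receptors and 10 ligands had a GFP promoter peak and 7 of each had a SRCAP promoter peak, and the differences fell to 30.4 points (5.80 to 53.1) and 25.2 points (3.04 to 48.7). With the most upstream protein-coding TSS of each gene they were 21.2 points (-1.21 to 45.1) and 27.1 points (5.21 to 50.5), so in the GFP list the interval then spanned 0.

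Among the Wnt ligands, Wnt8a, a ligand expressed around the primitive streak, and Wnt9b, which induces kidney tubules, had promoter peaks in both lists. Wnt8a had 2 promoter peaks with each antibody, all shared: those nearer the TSS had midpoints at -110 bp with a score of 58 (GFP) and at -182 bp with a score of 97 (SRCAP), and those farther out at -925 bp with a score of 40 and at -984 bp with a score of 33. The SRCAP score of 97 was the highest of any promoter peak of the 74 genes in that list. The Wnt9b peaks, whose common stretch is printed above, had midpoints at -376 and -227 bp, and a SRCAP peak in a UTR of the gene scored 34. Wnt3 (score 40, 26 bp downstream of its TSS) and Wnt8b (score 22, 370 bp downstream) had promoter peaks in the GFP list alone. Wnt3a, which with Wnt3 acts through β-catenin, had one in the SRCAP list alone, with a score of 14 at -459 bp, close to the lowest score of the list.

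Another 7 Wnt genes had peaks in the gene body only. Wnt6 was the strongest of them: an intronic peak (chr1:74773180-74773360 in the GFP list) scored 52 (GFP) and 119 (SRCAP), and a second, in a coding exon, scored 18 and 23. Both were shared. Wnt5b, a ligand of β-catenin-independent signalling, had 4 GFP peaks with scores of 22 to 64 and 2 SRCAP peaks with scores of 23 and 40, and both SRCAP peaks overlapped a GFP peak. One of these shared pairs lay in the promoter window of Fbxl14, a neighbouring gene. Wnt1 (score 25), Wnt4 (28) and Wnt11 (21) had 1 body peak each in the SRCAP list alone, and Wnt5a (40) and Wnt10b (35) had 1 each in the GFP list alone. None of these 5 was therefore seen with both antibodies. Wnt2, Wnt2b, Wnt7a, Wnt7b, Wnt9a, Wnt10a and Wnt16 had no promoter or body peak in either list.

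Of the 18 Fgf ligands, Fgf20, which acts in the inner ear, was the one with a promoter peak in both lists, at the TSS itself (midpoints 36 and 30 bp downstream) with scores of 33 and 34. Fgf23, a bone hormone that lowers blood phosphate, had its promoter peak in the GFP list alone (score 61) and a shared body peak (38 with GFP and 66 with SRCAP). Fgf15, the gut hormone that represses bile acid synthesis, had a promoter peak in the SRCAP list alone (score 28, -486 bp) and an unshared body peak in the GFP list with a score of 107. The antibodies thus marked different places of Fgf15. Fgf4, the ligand that embryonic stem cells secrete, had no promoter peak and 3 body peaks, with none shared. Of these, 2 were in the GFP list (scores 23 and 54, in an intron) and 1 in the SRCAP list (score 30, in a UTR). The GFP peaks lay at -3955 and -3200 bp of the nearest coding TSS. They count as body peaks because the other annotated TSS of Fgf4 is farther upstream. Fgf5, a marker of the primed epiblast, had 1 shared intronic peak, at chr5:98255828-98256422 with a score of 58 in the GFP list and at chr5:98255887-98256168 with 71 in the SRCAP list.

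Fgf1, an Fgf that lacks a signal peptide, had the most body peaks of the Fgf ligands, 3 with the GFP antibody (scores 28, 54 and 108) and 2 with the SRCAP antibody (both 53), and both SRCAP peaks were shared. Body peaks in 1 list alone were those of Fgf3 (SRCAP, score 29), Fgf7 (GFP, 40), Fgf9 (GFP, 54 and 71) and Fgf17 (GFP, 17). Fgf20 had 1 such peak in each list as well (scores 21 and 34), which did not overlap. Its GFP body peak lay at -9740 bp of the TSS that bears the promoter peaks. The SRCAP body peak was also in the promoter window of the neighbouring gene Micu3. No promoter or body peak was found at Fgf2, Fgf6, Fgf8, Fgf10, Fgf16, Fgf18, Fgf21 and Fgf22.

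Bmp8a and Bmp8b, neighbouring paralogs that act in germ cells, were the Bmp ligands with promoter peaks. The Bmp8a peaks spanned the TSS with both antibodies (midpoints 64 bp downstream and at -33 bp), whereas Bmp8b had a GFP peak alone (score 47, -566 bp) and an intronic SRCAP peak (score 23). The 2 genes are close copies. The study's ChIP-seq methods keep reads that match 1 place alone, and whether this holds for CUT&RUN is not stated. Bmp6 and Bmp7, which act in bone and kidney, each had 1 body peak in the GFP list with a score of 28, and Bmp2, Bmp3, Bmp5, Bmp10 and Bmp15 had none.

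Among the Notch ligands no promoter peak was in both lists. Dll3, a divergent ligand that does not activate Notch on neighbouring cells, had a GFP promoter peak (score 41) and a shared intronic peak (66 and 55). Jag2 had a GFP promoter peak (score 40, -646 bp), and Dll4, the ligand of arterial endothelium, had a SRCAP promoter peak (score 21, -27 bp) and a SRCAP peak in a coding exon (score 18). The Dll4 promoter peak was also in the promoter window of Gm14207, a gene not classed as protein-coding. Jag1 had a shared intronic peak with scores of 99 and 29, and Dll1 had none.

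Among the Frizzled receptors, Fzd2, Fzd4, Fzd7, Fzd8 and Fzd9 had promoter peaks in both lists. In Fzd9, Fzd8, Fzd7 and Fzd2 the 2 antibodies' peaks overlapped: the scores were 66 and 52 for Fzd9, 52 and 39 for Fzd8, 22 and 67 for Fzd7, and 22 and 16 for Fzd2. All these midpoints lay upstream of the TSS, between -549 and -154 bp. In Fzd4, which carries Norrin and Wnt signals in retinal vessels, the GFP peak (score 50, midpoint -267 bp) and the SRCAP peak (score 46, 37 bp downstream) lay next to each other without overlap, and both were also in the promoter window of the divergent gene Tmem135. Fzd5 (score 50, -372 bp) and Fzd6 (score 40, 11 bp downstream), the second a planar polarity receptor, each had their promoter peak in the GFP list alone, and Fzd3, a receptor of axon guidance, had one in the SRCAP list alone with a score of 71 at -189 bp. Fzd1 and Fzd10 had no peak in either list. Peaks in the body of Frizzled genes were those of Fzd3 (27 and 65 with GFP, 85 with SRCAP, the higher 2 shared), Fzd8 (29 and 55, shared, in a UTR) and Fzd5 (48, GFP alone).

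**Figure D3:**
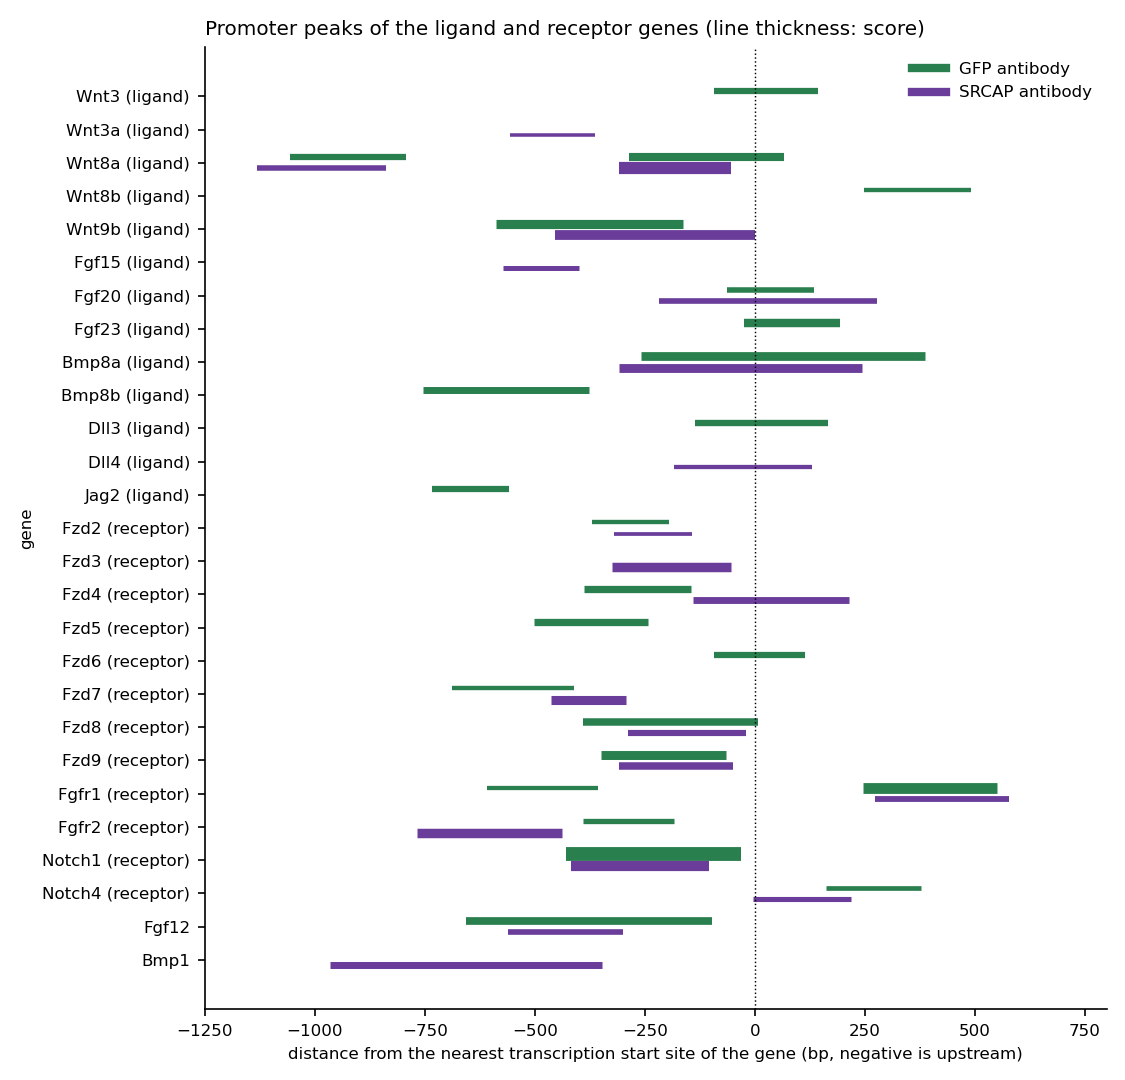
Promoter peaks of the 27 genes that had any, drawn by their width around the distance of the midpoint from the nearest annotated TSS of the gene (bp, negative is upstream), with line thickness rising with the score. Frizzled peaks lie mostly upstream of the TSS, and the Fgfr2 and Notch4 lines of the 2 antibodies are measured from different TSSs.

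The Fgf receptors with promoter peaks were Fgfr1 and Fgfr2, and neither had a pair of overlapping peaks at the start of a CCDS transcript. Fgfr1, the main Fgf receptor of embryonic stem cells, had a shared pair 398 and 425 bp downstream of the TSS of a transcript not classed as protein-coding, inside an intron (scores 84 and 36), also in the window of the non-coding gene Gm16159, and a weak GFP peak at -483 bp of a coding TSS (score 21). Fgfr2 had a GFP peak at the main TSS (chr7:130266447-130266653, score 31, -287 bp). Its SRCAP promoter peak (chr7:133123788-133124118, score 71) belonged to another TSS, at position 133123350, and lay in the promoter of Ctbp2 as well. That TSS belongs to 1 of 27 annotated Fgfr2 transcripts and stretches the gene to 2961 kb, against 104 kb for the span of its CCDS transcripts. Fgfr3 and Fgfr4 had no peak in either list.

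Notch1, the receptor with the highest-scoring promoter peak (113, GFP), had its shared pair at -233 and -263 bp from the start of its CCDS transcript, and the stretch printed above is common to both. Notch4, an endothelial receptor, had a GFP peak (score 25) and a SRCAP peak (score 29) in coding exons near 2 different internal TSSs of transcripts not classed as protein-coding. Notch2 and Notch3 had no promoter peak. Their shared intronic peaks scored 100 and 49 in Notch2 and 39 and 23 in Notch3, and each had 1 further SRCAP peak with a score of 29. Notch1 also had a shared peak in a UTR with a score of 56 in both lists, and 1 unshared body peak in each list (15 with GFP and 42 with SRCAP).

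Of the 5 genes that are neither ligands nor receptors, Fgf12 had promoter peaks with both antibodies, at -377 and -430 bp with scores of 54 and 34, and 3 further GFP peaks in the body (scores 22 to 40). Bmp1 had a SRCAP promoter peak (score 47, -656 bp). Fgf14, a regulator of sodium channels in neurons, had 5 body peaks in each list, with scores of 21 to 83 (GFP) and 23 to 67 (SRCAP), of which 2 pairs were shared. Fgf11 and Fgf13 had none.

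In gene bodies the classes did not separate when all peaks were counted. Leaving out promoter peaks, 27 of 74 genes (36.5%, 26.4 to 47.9) had a body peak in the GFP list, beside 25.3% of all protein-coding genes, and 24 (32.4%, 22.9 to 43.7) in the SRCAP list, beside 25.0%. Both lists held one for 17 genes (23.0%, 14.9 to 33.7), beside 18.1%. The GFP interval lay just above its background, which it held with the spans of CCDS transcripts (33.8%, 24.0 to 45.1, beside 27.1%), and the other 2 held theirs. With the GFP antibody 17 of 51 ligands (33.3%) and 8 of 18 receptors (44.4%) had a body peak, a difference of 11.1 points whose interval spanned 0 (-13.0 to 35.7). With the SRCAP antibody they were 16 (31.4%) and 7 (38.9%), a difference of 7.52 points (-15.5 to 32.6). The interval lay above 0 with peaks of both antibodies alone, at 25.2 points (3.04 to 48.7) in each list, and with SRCAP peaks at or above the median score, at 23.5 points (3.14 to 47.1). Counting promoter and body in either list together, 30 of 51 ligands (58.8%) and 14 of 18 receptors (77.8%) had some peak, a difference of 19.0 points (-7.18 to 38.0). The share of all protein-coding genes was 58.2%, within the intervals of ligands (45.2 to 71.2) and of receptors (54.8 to 91.0).

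Body peaks depend on gene length, which differed little in the median (22.0 kb for ligands, 15.8 kb for receptors and 17.4 kb for all protein-coding genes). Per 100 kb, ligands held 1.54 GFP and 1.17 SRCAP peaks and receptors 1.30 and 1.70, beside 0.973 and 0.941 over all protein-coding genes. The receptor values turned on Fgfr2, whose annotated length holds 32 GFP and 48 SRCAP peaks, of which 2 and 1 lie within the span of its CCDS transcripts. Without Fgfr2 the receptors held 2.59 and 2.19 peaks per 100 kb, above the ligands in both lists, whereas with it they were below the ligands in the GFP list. The intracellular Fgf genes and Bmp1, which are long (median 506 kb), held 0.433 and 0.270. Outside Fgfr2, Fgfr1 had the most body peaks of the receptors, 5 with the GFP antibody (33 to 117) and 3 with the SRCAP antibody (38 to 97), with 2 pairs shared. The stronger pair with the GFP antibody lay in an intron (117 and 69) and the other in a UTR (61 and 97). Fgfr1 lies on chromosome 8, which held 2555 of the 28718 GFP peaks and 2965 of the 28167 SRCAP peaks. Whether its count exceeds that of other genes on this chromosome was not tested.

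**Figure D4:**
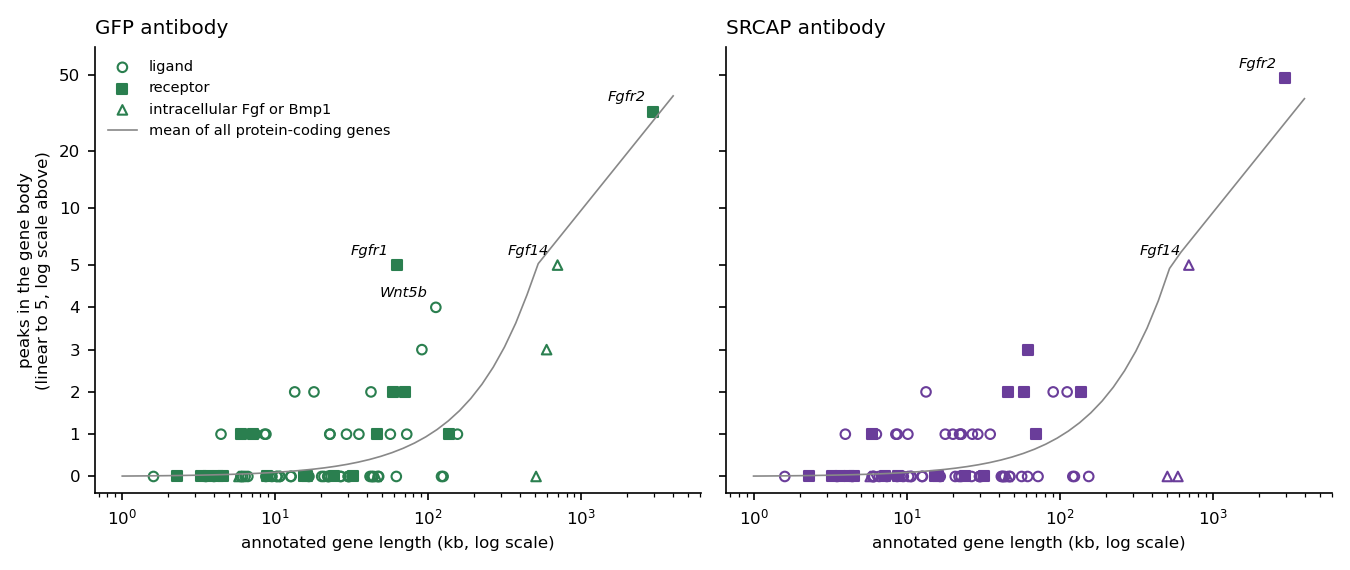
Number of gene body peaks (vertical axis, linear to 5 and log scale above) against annotated gene length (kb, log scale) for the 74 genes, with the GFP antibody on the left and the SRCAP antibody on the right; the grey line is the mean density of all protein-coding genes. Fgfr2 stands at 2961 kb with 32 and 48 peaks, and Fgfr1 lies above the line in both panels.

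Promoter peaks of the 74 genes had lower median scores and widths than those of protein-coding genes at large. The median score of the 24 GFP peaks was 44.0 (range 21 to 113) and that of the 20 SRCAP peaks 42.5 (14 to 97), beside 53.0 and 54.0 for promoter peaks of all protein-coding genes. A score at or above the list median was held by 12 of 24 and 9 of 20, beside 58.7% and 61.2%. Median widths were 260 and 282 bp, beside 334 and 296 bp. They also lay farther from the TSS: 8 of 24 GFP midpoints (33.3%) and 9 of 20 SRCAP midpoints (45.0%) were within 200 bp, beside 56.7% and 66.1%, and the median position was -219 and -208 bp, beside -128 and -91.0 bp. Among receptors 2 of 12 GFP midpoints (16.7%) were within 200 bp of a TSS, and among ligands 6 of 11 (54.5%). With the SRCAP antibody both classes were at 50.0% (5 of 10 and 4 of 8). These are descriptions of few peaks in 1 library per antibody.

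Agreement between the antibodies was counted as an overlap of at least 1 bp. Of the 24 GFP promoter peaks 12 were shared (50.0%, 31.4 to 68.6) and of the 20 SRCAP promoter peaks 12 (60.0%, 38.7 to 78.1), beside 68.8% and 68.4% of promoter peaks of all protein-coding genes. The GFP interval lay just below its background and the SRCAP interval held it. In gene bodies 37 of 78 GFP peaks (47.4%) and 37 of 83 SRCAP peaks (44.6%) were shared, beside 49.4% and 51.0%. Leaving out Fgfr2 gave 19 of 46 (41.3%) and 19 of 35 (54.3%). The 9 receptors with a promoter peak in both lists thus include 6 with overlapping peaks (Fgfr1, Fzd2, Fzd7, Fzd8, Fzd9 and Notch1), while in Fgfr2, Fzd4 and Notch4 the antibodies marked different places. The 4 ligands counted in both lists (Bmp8a, Fgf20, Wnt8a and Wnt9b) all had overlapping peaks. Keeping shared peaks alone, 33.3% of receptors and 7.84% of ligands had a promoter peak, a difference of 25.5 points (5.38 to 48.9).

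Promoter base composition was compared between the classes, since CpG-rich promoters had peaks more often over the whole annotation. A promoter was called CpG-rich when the 500 bp on either side of the most upstream protein-coding TSS had at least 50% GC and an observed over expected CpG ratio of at least 0.6. By this measure 15 of 18 receptors (83.3%, 60.8 to 94.2) and 29 of 51 ligands (56.9%, 43.3 to 69.5) were CpG-rich, beside 45.1% of all protein-coding genes, and the difference of 26.5 points (0.617 to 43.9) was only just above counting error. Averaged over all TSSs of a gene the shares were 55.6% and 47.1%, a difference of 8.50 points whose interval spanned 0 (-17.1 to 32.3). For Fgfr2 (ratio 0.732) that TSS is the distant one described above. For Fgf20 (ratio 0.805) it is at position 40308331, whereas its promoter peaks lie at the TSS at 40286953. All 10 Fzd promoters were CpG-rich, with ratios of 0.604 (Fzd8) to 1.03 (Fzd3). Among genes with CpG-rich promoters, 52.1% had a GFP and 53.5% a SRCAP promoter peak over the whole annotation. The CpG-rich receptors were near that background (8 of 15, 53.3%, and 7 of 15, 46.7%), whereas the CpG-rich ligands were below it, at 6 of 29 in each list (20.7%, 9.85 to 38.4). Within CpG-rich promoters the receptor minus ligand difference was 32.6 points with the GFP antibody (3.45 to 57.0) and 26.0 points with the SRCAP antibody, where the interval spanned 0 (-2.15 to 51.6). The part of CpG content in the difference beyond this was not tested.

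A CpG-rich promoter did not go with a peak in every case. Among the genes without a promoter peak, 20 of 38 ligands (52.6%) and 6 of 6 receptors (Fgfr3, Fgfr4, Fzd1, Fzd10, Notch2 and Notch3) were CpG-rich, beside 28.3% of all protein-coding genes without one. Conversely the 3 receptors below the CpG limit, Fgfr1 (0.280), Notch1 (0.249) and Notch4 (0.162), all had promoter peaks in both lists, and these peaks lay away from the most upstream TSS, where the ratio was measured, those of Notch1 at the start of its CCDS transcript. Wnt8a (0.254) combined a CpG-poor promoter with 2 shared peaks.

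**Figure D5:**
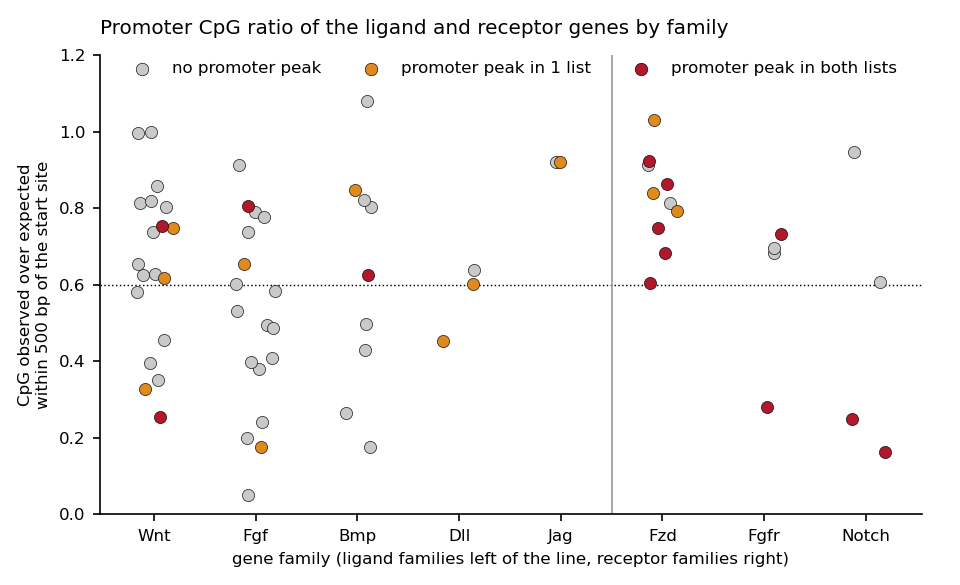
CpG observed over expected ratio within 500 bp of the most upstream protein-coding TSS (vertical axis) for the 51 ligands and 18 receptors by family, coloured by whether a promoter peak was in neither list, in 1 list or in both; the dotted line is 0.6. All Fzd genes lie above the line, and many grey Wnt, Fgf and Bmp genes lie above it too.

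The genes without peaks were mostly far from any, as were protein-coding genes without peaks at large. For the 21 ligands with no promoter or body peak, the median distance from TSS to nearest peak was 62.4 kb (GFP) and 45.4 kb (SRCAP). Of these ligands, 6 had a peak within 10 kb in each list (28.6%). For the 4 receptors without peaks the medians were 81.5 and 63.2 kb, with none within 10 kb. Protein-coding genes without promoter or body peaks had medians of 43.4 and 42.4 kb, so these distances were of the same order. A peak within 10 kb was found for 18.4% (GFP) and 17.8% (SRCAP) of those protein-coding genes. Over whole classes the median distance was 8.50 and 11.1 kb for ligands and 0.385 and 0.514 kb for receptors, beside 6.50 and 6.38 kb for all protein-coding genes.

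Motifs were counted in 200 bp around the midpoint of each promoter peak, on both strands. A CCAAT box was in 10 of 24 GFP peaks (41.7%, 24.5 to 61.2) and 12 of 20 SRCAP peaks (60.0%, 38.7 to 78.1), beside 31.8% and 33.9% of promoter peaks of all protein-coding genes. The SRCAP interval lay above its background and the GFP interval held it. By class, the SRCAP peaks with a CCAAT box were 7 of 10 in receptors and 3 of 8 in ligands, and the GFP peaks were 3 of 12 and 6 of 11, so neither class was higher with both antibodies. A GC box was in 5 of 24 GFP peaks (20.8%) and 7 of 20 SRCAP peaks (35.0%), beside 32.0% and 39.8%. The TCF/LEF letters were in 2 of 24 and 1 of 20 (8.33% and 5.00%), beside 2.11% and 1.72%, ETS letters in 2 of 24 and 0 of 20 beside 7.95% and 9.75%, an E-box in 0 of 24 and 1 of 20 beside 5.10% and 5.42%, the octamer in 0 of 24 and 1 of 20 beside 1.18% and 1.27%, and the CRE in none beside 0.911% and 1.29%. Of these last counts, the TCF/LEF interval in the GFP list (2.32 to 25.8) lay just above its background and rests on 2 peaks, and the other intervals held theirs.

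The other genes of the 4 pathways were taken from 8 lists of known co-receptors, antagonists, transducers and nuclear factors, of which 173 of 175 were in the annotation (not found: Spry3 and Hjv). Promoter peaks were found for 76 of 173 with the GFP antibody (43.9%, 36.7 to 51.4) and 78 of 173 with the SRCAP antibody (45.1%, 37.9 to 52.5), both intervals above the background of protein-coding genes given first. The lists of processing, secretion, transducer and nuclear genes were set against those of receptors, co-receptors, modulators, antagonists and Fgf feedback inhibitors. The split followed the lists and not the place of action of each gene. With the GFP antibody it gave 52 of 108 (48.1%) against 24 of 65 (36.9%), a difference of 11.2 points (-4.02 to 25.4). With the SRCAP antibody it gave 56 of 108 (51.9%) against 22 of 65 (33.8%), a difference of 18 points (2.72 to 31.8). The difference exceeded counting error with the SRCAP antibody alone. The ligands, at 19.6% and 13.7%, were below both groups in each list.

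By pathway, the Fgf transducers and nuclear factors had the highest shares, 15 of 22 (68.2%, 47.3 to 83.6) and 14 of 22 (63.6%, 43.0 to 80.3), and the secreted Wnt modulators and co-receptors were at 7 of 28 (25.0%, 12.7 to 43.4) and 8 of 28 (28.6%, 15.3 to 47.1). The Wnt transducers and nuclear factors had 11 and 13 of 25, the Fgf co-receptors and feedback inhibitors 8 of 18 in both lists, and the Bmp receptors and antagonists 9 and 6 of 19. Of the Bmp receptor kinases, Acvr2b and Bmpr1b had a promoter peak in both lists and Bmpr2 in neither. Acvr1, Acvr2a, Acvrl1 and Bmpr1a had one in the GFP list alone, so most Bmp receptors lacked a SRCAP promoter peak. The Bmp transducers had 5 and 8 of 18, the Notch processing genes 14 and 13 of 26, and the Notch nuclear factors and targets 7 and 8 of 17. The background of all protein-coding genes was 35.0% (GFP) and 35.6% (SRCAP). The Fgf transducer intervals lay above it with both antibodies. With GFP that of the Notch processing genes did just so (53.8%, 35.5 to 71.2). All other intervals of these gene lists held it, so those counts were not distinguishable from protein-coding genes at large. The 3 highest SRCAP promoter scores of each pathway were those of Axin1 (217), a scaffold of β-catenin destruction, Gsk3b (181), its kinase, and Pygo2 (176), a nuclear partner of β-catenin, for Wnt. For Fgf, Flrt3 (130), a membrane partner of Fgf receptors, and Shc1 (115), an adaptor, were among them. For Bmp they were Rgmb (100), a co-receptor, Smad1 (79), the signal transducer, and Bmpr1b (76), a type I receptor, and for Notch Maml1 (164), a coactivator of the Notch complex, Aph1b (126), a γ-secretase subunit, and Mib2 (90), a ubiquitin ligase. All 11 genes named here also had a GFP promoter peak, with scores of 34 (Rgmb) to 320 (Gsk3b). The highest SRCAP promoter scores among the 74 genes, those of Wnt8a (97) and Notch1 (78), were below the highest of every pathway.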

How the data were processed

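Each library has 1 deposited peak list from the authors, whose score per peak is of unstated meaning. The submitters' processing notes name STAR, Picard, MACS2, mm10 and dm6. The study's ChIP-seq methods use STAR to map unique reads, Picard to remove duplicates and MACS2 to call peaks against an input, but do not name CUT&RUN, so its control is not stated. Peak names carry 1 library each, so peaks were called per library. The deposited lists hold no read counts, so depth and its precision are unknown, and no sample column was left unused (0). All peak ends lay within GRCm38 (mm10) chromosomes.

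Genes were selected by symbol from GENCODE vM21. A gene that fits the symbol rule and a further pathway gene that fits the naming rule are not reported here. Peaks were placed by midpoint (Python 3.11.15, numpy 2.4.6, pandas 2.3.3), promoter peaks being left out of gene bodies. Shares carry 95% Wilson intervals (scipy 1.17.1) and differences 95% Newcombe intervals. With 1 library per antibody no test was made and no p-value is given. Every gene was named, with positions and scores for promoter peaks and for the genes with most body peaks. Members and lists were chosen with earlier results of these data known. The gene and overlap steps were tested on simulated data, and overlaps were checked with bedtools 2.31.1. Sequences were read from GRCm38.p6 (RefSeq). Alternatives changed the promoter window, TSS set, score limit, overlap rule and CpG measure. Plots used matplotlib 3.10.9.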

Additional observations from a re-analysis of the deposited data

How the results depend on the processing

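Of 98 alternative values, 76 kept their direction and stayed within the counting interval of the main value. The others were 21 classed as moved and 1 as reversed. The reversed value and 1 of the moved are peaks per 100 kb, which have no interval and another unit than the main difference of shares. Some alternatives repeat the same counts, so these values are not independent of each other. The receptor minus ligand difference at promoters was above 0 in all 22 alternatives run over both antibodies (20.3 to 41.8 points), and its interval was above 0 in 18 of them. The other 4 were windows of 2500 bp either side of the TSS, with 25.8 points (-0.529 to 47.8) for GFP and 20.3 points (-5.53 to 43.3) for SRCAP, the CpG-rich genes with the SRCAP antibody (26.0) and the most upstream protein-coding TSS with the GFP antibody (21.2, chosen after seeing the data). In gene bodies the difference reversed to -0.239 peaks per 100 kb for GFP and was 0.534 for SRCAP, and both values turned on Fgfr2. The 2500 bp window raised the share of the 74 genes with a SRCAP promoter peak to 41.9%, beside 41.9% of all protein-coding genes. With the GFP antibody the share was 40.5%, beside 41.6%. Ligands were then at 35.3% in each list, nearer to the background than in the main count. The share of the other pathway genes rose to 54.9% in each list. Peaks at or above the median score gave 16.2% (GFP) and 12.2% (SRCAP) of the 74 genes at promoters, 21.6% and 16.2% in bodies (all protein-coding genes 22.2%, 23.5%, 14.4% and 13.8%), 28.9% and 29.5% of the other pathway genes, 67.6% and 80.0% of body peaks shared, and median distances of 19.4 and 31.8 kb. Peaks of both antibodies alone gave 14.9% at promoters and 20.3% in bodies for each list (all protein-coding genes 25.8% and 15.4%). A reciprocal overlap of 50% left 30.8% and 28.9% of body peaks shared, and the mean CpG measure over all TSSs made 55.6% of receptors and 47.1% of ligands CpG-rich. The cause of these shifts was not tested, beyond the fewer peaks or wider windows that each rule leaves by construction. Leaving out chromosome 8, where Fgf20 and Fgfr1 lie, or peaks in masked repeats moved no promoter difference beyond its interval. No paired analysis was possible because only 1 library was made with each antibody. With 1 library, no replicate and no depth, absence of a peak does not show absence of SRCAP.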
